A study of Mus musculus with 28 samples.

Results

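The iron, hepcidin and BMP6 axis was followed here through 10 genes of mouse liver, taken from the deposited count tables by symbol: Hamp, Hamp2, Bmp6, Tfrc, Tfr2, Trf, Fth1, Ftl1, Hfe and Slc11a2. All 10 symbols were found among the 32544 genes of the male table and the 32544 genes of the female table, and all 10 passed the filter on low counts in both. The study measured whole-liver RNA of C57BL/6 mice that carried floxed c-Myc alleles, either as controls (CT) or with c-Myc deleted in endothelial cells (EC-Myc KO, here KO). Mice of both genotypes were given tamoxifen at 5 weeks of age, waited 2 weeks, and then were fed for 5 weeks on control chow low in fat (CTD) or on chow high in fat and cholesterol (HFC) before the livers were snap frozen. The 8 groups combined sex, genotype and diet, with 4 males or 3 females in each and 1 library per animal. The labels give an age of 13 weeks, 1 week more than these steps add up to, and the promoter that drives the Cre recombinase is not given in the sources used here. The animals on CTD carry the numbers 298 to 320 and those on HFC the numbers 412 to 543. The labels name no cohort or batch, and anything that goes with these number blocks cannot be told apart from diet.

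Hepcidin, the peptide encoded by Hamp, is made by hepatocytes and limits the entry of iron into plasma by binding the iron exporter ferroportin. Endothelial cells of the liver sinusoids secrete BMP6 when iron is plentiful; BMP6 acts on BMP receptors and the co-receptor hemojuvelin of hepatocytes, SMAD proteins are phosphorylated, and Hamp transcription rises. HFE and TFR2 carry information on transferrin-bound iron into the same control, and IL6 acts on Hamp through STAT3. Within cells, iron-regulatory proteins bind hairpins called iron-responsive elements (IREs) when iron is low, which protects the messenger of Tfrc from decay and blocks translation of the ferritin messengers.

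The control regions of the mouse hepcidin genes are shown because Hamp and Hamp2 lie side by side on the minus strand of chromosome 7 yet differ in the element through which SMAD proteins are known to act. Each window holds 101 bases upstream of the start annotated by RefSeq, with build GRCm38.p6, read 5′ to 3′ on the gene's strand. Capitals mark the BMP response element position (GGCGCC in Hamp) and the STAT element (TTCNNNGAA). The Hamp window spans chr7:30944078-30944178, from base -149 to base -49 relative to the start, and the Hamp2 window spans chr7:30924227-30924327. GENCODE M21 starts Hamp2 farther upstream, at base 30924681, so by that annotation the Hamp2 window lies inside the gene.
Hamp: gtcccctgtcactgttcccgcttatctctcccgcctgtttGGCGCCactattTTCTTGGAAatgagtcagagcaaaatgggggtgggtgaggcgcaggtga
Hamp2: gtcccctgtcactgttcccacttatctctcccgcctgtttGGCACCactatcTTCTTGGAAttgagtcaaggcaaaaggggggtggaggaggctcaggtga
The substitution within the first element is G145A, with positions counted from 1 at the 5′ end of the 250 bases upstream of Hamp, Hamp's base first. Over 247 aligned bases the upstream regions were 91.9% identical, with 20 substitutions. Searched on both strands, GGCGCC occurred in 9.59% and TTCNNNGAA in 7.02% of 32851 mouse promoters of 250 bases, so neither is rare. Of the 8 members with a promoter entry (Trf and Slc11a2 had none), Hamp and Tfrc held GGCGCC, and Hamp and Hamp2 held TTCNNNGAA. The E-box CACGTG, the motif that MYC is known to bind, occurred in 6.02% of promoters and, among these members, in Bmp6. The Bmp6 promoter, placed by its RefSeq start, lies inside the gene by GENCODE M21, which starts it at base 38345107.

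The IREs are shown because Tfrc, Slc11a2 and Fth1, each called in at least 1 diet comparison, carry them in their messengers; Ftl1, which was called in none, is shown as the other ferritin chain. Each site has 29 bases from the GENCODE M21 transcripts on GRCm38, with the loop CAGTGN in capitals. Fth1 and Ftl1 hold theirs in the 5′ UTR, and Tfrc and Slc11a2 in the 3′ UTR.
Fth1, chr19:9982732-9982760, plus strand: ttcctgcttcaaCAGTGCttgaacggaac
Ftl1, chr7:45459779-45459807, minus strand: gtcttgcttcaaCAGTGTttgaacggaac
Tfrc, chr16:32631219-32631247, plus strand: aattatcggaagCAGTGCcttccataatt
Tfrc, chr16:32631598-32631626, plus strand: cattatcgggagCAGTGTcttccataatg
Tfrc, chr16:32631663-32631691, plus strand: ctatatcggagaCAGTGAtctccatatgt
Tfrc, chr16:32631710-32631738, plus strand: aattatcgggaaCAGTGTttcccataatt
Slc11a2, chr15:100395153-100395181, minus strand: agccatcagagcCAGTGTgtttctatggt
The search asked for the loop, 5 base pairs below it and an unpaired C on the 5′ side. It matched in the 5′ UTR of 30 of 21877 coding genes (0.137%) and in the 3′ UTR of 128 (0.585%). The Slc11a2 site matched only when 1 unpaired base was allowed on the 3′ side of the stem, a form found in the 3′ UTR of 231 genes (1.06%).

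The members are spread over 6 chromosomes besides chromosome 7, by GENCODE M21 on GRCm38. Hamp spans chr7:30942368-30944032, Hamp2 chr7:30922372-30924681 and Ftl1 chr7:45457944-45459884, all on the minus strand. The upstream genes are Bmp6 at chr13:38345107-38500302 on the plus strand, Hfe at chr13:23702034-23710854 on the minus strand and Tfr2 at chr5:137569840-137587481 on the plus strand. Tfrc lies at chr16:32608920-32632794 and Fth1 at chr19:9980598-9985098, on the plus strand, and Trf at chr9:103204001-103230444 and Slc11a2 at chr15:100387898-100425072, on the minus strand. Counts are sums over a whole gene, so exons and isoforms were not told apart.

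The libraries held 22154774 to 22652285 counts in males and 18741939 to 19195502 in females. Levels are given as CPM, the library's share of counts scaled by TMM factors, within each sex. Overlap of groups is described without a test, and the share of all genes without overlap was not counted. Differences are log2 values from edgeR's quasi-likelihood test with their standard errors (SE), and a gene was called at a Benjamini-Hochberg adjusted p under 0.05 over all genes tested, 14078 in males and 13999 in females. The targeted gene, Myc, lay between 3.09 and 20.5 CPM, its KO and CT animals overlapped in all 4 comparisons, and it was not called. Its estimate was higher in KO each time, by 0.45 (SE 0.54) in HFC-fed males and 0.81 (SE 0.55) in CTD-fed males. The female differences were 0.62 (SE 0.56) under HFC and 0.69 (SE 0.56) under CTD. Whole-liver RNA does not check a deletion in endothelial cells. Nothing in the labels says more about how animals were allotted, so the p-values measure the spread between these animals. In bulk liver, fewer cells of a type and less RNA per cell cannot be told apart. The 12 hepatocyte markers were all detected, with summed levels of 81968 to 192664 CPM over the groups.

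The members spanned a wide range of abundance when counts were divided by exonic length. In CT males on CTD the mean level was 3160 CPM per kb for Trf, the transferrin of plasma, followed by 1153 for the ferritin light chain Ftl1, 683 for Hamp and 273 for the ferritin heavy chain Fth1. Tfr2 at 85.2 and Hamp2 at 85.1 CPM per kb lay next to each other and did not differ beyond their spread over animals. Hfe had 8.99, Slc11a2 3.44, Tfrc 1.65 and Bmp6 0.799 CPM per kb. In CT females on CTD, Hamp stood first at 3898 and Hamp2 after Trf and Ftl1 at 1351 CPM per kb, with Bmp6 again last at 0.468. The sexes were deposited as separate tables and scaled separately, so levels were not tested between them.

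Slc11a2, which encodes the divalent metal transporter DMT1, rose on HFC in all 4 combinations of sex and genotype, by 1.32- to 1.85-fold. Tfrc, which encodes transferrin receptor 1, rose in males of both genotypes and was not called in females. Hamp and Hamp2 lay lower on HFC in every female group, and averaged over genotypes the fall of Hamp2 in females passed the test while that of Hamp did not. In CT males 2 of 10 members were called higher, beside 10.6% of all genes, and 0 lower, beside 9.4%. KO males again had 2 called higher and 0 lower, against 15.5% and 13.6% of all genes. In CT females 1 was called higher (0.936% of all genes) and 0 lower (1.26%), and in KO females 1 higher (3.94%) and 0 lower (4.65%). The members' median difference was 0.14, 0.06, -0.01 and 0.05 in these 4 comparisons, beside -0.01, -0.02, 0.00 and 0.02 over all genes tested. When library totals alone scaled the data, the median of all genes moved to 0.22, 0.26, 0.30 and 0.32, and the genes called higher were 4125 of 4535, 5581 of 6092, 1682 of 1827 and 3357 of 3737 called, in place of 1497, 2184, 131 and 551 by TMM; the calls of Tfrc and Slc11a2 held under both.

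**Figure D1:**
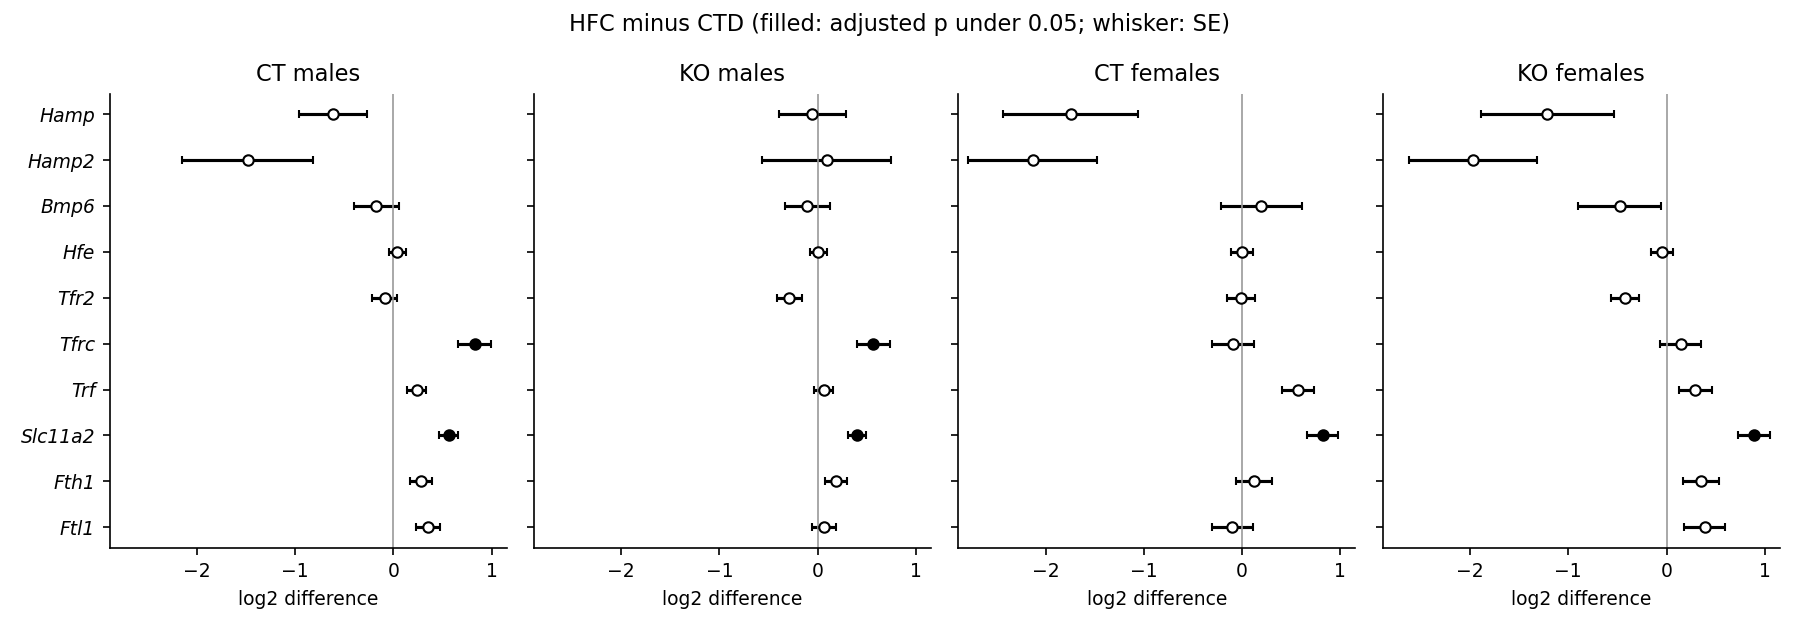
Difference between HFC and CTD (log2 units, x axis) of the 10 members in CT males, KO males, CT females and KO females; whiskers are SE and filled points have an adjusted p under 0.05. Slc11a2 is filled in all 4 panels, Tfrc in both male panels only, and the hepcidin genes lie farthest to the left in females.

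Hamp encodes hepcidin. In CT females it stood at 2849, 974 and 972 CPM under CTD and at 573, 732 and 125 CPM under HFC. In KO females the values were 2071, 861 and 984 CPM under CTD and 323, 834 and 531 CPM under HFC. Every female on HFC lay below every female of her genotype on CTD, with 1 animal far above the rest in each CTD group. The difference was -1.74 (SE 0.69, 3.35-fold lower, adjusted p = 0.197) in CT females and -1.21 (SE 0.68, 2.32-fold lower, adjusted p = 0.290) in KO females, neither of them called. Averaged over genotypes it was -1.48 (SE 0.48, 2.79-fold lower) at an adjusted p of 0.0574, and DESeq2 gave 0.0141. Over all 16 alternatives of that average the adjusted p ran from 0.0141 to 0.137, and only DESeq2 called it.

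In males Hamp was not called with diet. CT males had 361, 221, 283 and 254 CPM under CTD and 256, 94.0, 223 and 159 CPM under HFC, and KO males had 330, 688, 288 and 421 CPM under CTD and 445, 231, 529 and 460 CPM under HFC. The diets overlapped in both genotypes. The differences were -0.61 (SE 0.34, adjusted p = 0.230) in CT males and -0.05 (SE 0.34, adjusted p = 0.929) in KO males, and -0.33 (SE 0.24, adjusted p = 0.294) averaged over genotypes. The female minus male difference of the averaged diet effects was -1.18 (95% interval -2.20 to -0.15, adjusted p = 0.385), so the sexes were not shown to differ.

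Hamp2 encodes a second hepcidin-like peptide whose part in iron control is less clear. Its CT female values were 995, 1037 and 331 CPM under CTD and 103, 145 and 292 CPM under HFC, and its KO female values were 718, 405 and 346 CPM under CTD and 38.3, 198 and 139 CPM under HFC. All females on HFC lay below all females of the same genotype on CTD. Each genotype alone missed the threshold, at -2.13 (SE 0.66, adjusted p = 0.122) in CT and -1.97 (SE 0.65, adjusted p = 0.0922) in KO, where DESeq2 gave 0.0180 and 0.0187. The alternatives ran from 0.0180 to 0.357 and from 0.0187 to 0.243. Averaged over genotypes Hamp2 fell by 2.05 on the log2 scale (SE 0.46, 4.14-fold lower, adjusted p = 0.0137), and all 16 alternatives kept the call.

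In males Hamp2 was not called with diet, and its coefficient of variation among animals ran from 9.63% in KO on CTD to 80.6% in CT on HFC. CT males read 50.1, 38.5, 8.11 and 102 CPM under CTD and 39.3, 9.93, 11.7 and 10.3 CPM under HFC, while KO males read 30.5, 24.2, 28.3 and 27.1 CPM under CTD and 24.2, 49.6, 32.0 and 11.4 CPM under HFC. The diets overlapped in both genotypes. In CT males the difference was -1.48 (SE 0.67, adjusted p = 0.142), and it passed without CTD animal 313 (adjusted p = 0.0491) or without HFC animal 416 (adjusted p = 0.0437); over 13 alternatives the adjusted p ran from 0.0437 to 0.376. KO males gave 0.09 (SE 0.66, adjusted p = 0.938). Transcripts of Hamp and Hamp2 were 94.6% identical over 410 aligned bases, so how reads were divided between them depends on the counting, which is not given in the sources used here.

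**Figure D2:**
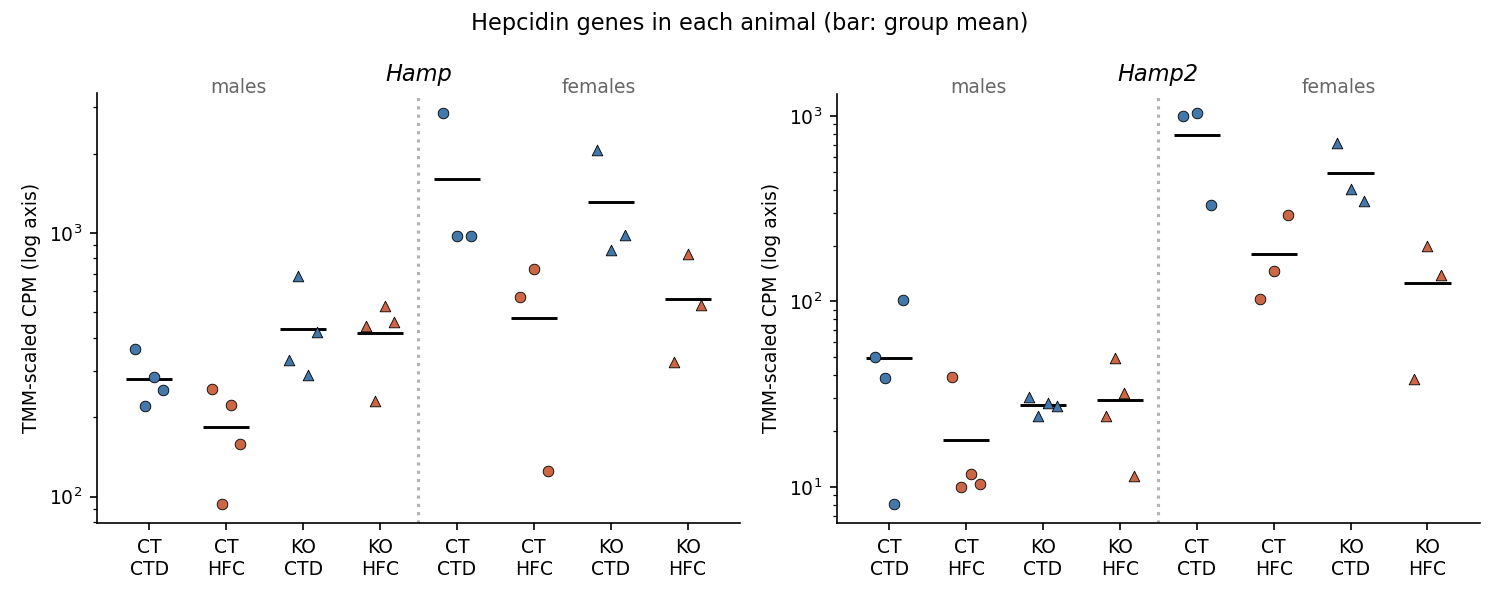
Hamp (left) and Hamp2 (right) in each animal, as TMM-scaled CPM on a log axis, by genotype and diet with males left and females right of the dotted line; circles are CT, triangles KO, blue CTD, orange HFC, and bars group means. Within each female genotype all HFC points lie below all CTD points for both genes, while the male diets overlap.

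Averaging over genotypes, the members called were Tfrc, Slc11a2 and Fth1 in males (3 of 10 higher beside 20.4% of all genes, 0 lower beside 20.4%) and Slc11a2 and Trf higher with Hamp2 lower in females (2 of 10 higher beside 10.4%, 1 lower beside 8.98%). The averaged comparisons were added after the data had been examined.

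None of the members that stand upstream of Hamp was called with diet. Bmp6, the endothelial ligand, was rare, with 0.812 to 3.68 CPM and 13 to 96 counts per library. CT males had 3.27, 2.59, 3.33 and 3.28 CPM under CTD and 3.39, 3.05, 2.31 and 2.32 CPM under HFC, and CT females had 0.812, 2.51 and 2.16 CPM under CTD and 2.64, 2.36 and 1.28 CPM under HFC. The diets overlapped in both sexes and both genotypes. Its diet differences of -0.17, -0.11, 0.20 and -0.48 in CT males, KO males, CT females and KO females had SE of 0.23, 0.23, 0.41 and 0.42, and none was called. The 95% interval in KO females, from -1.30 to 0.35, still included a fall of more than 2-fold.

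Hfe, whose product binds transferrin receptor 1, stayed between 28.9 and 41.5 CPM in all 28 livers. Its diet differences lay between -0.04 and 0.04, and their 95% intervals reached from -0.27 at the lowest to 0.22 at the highest. Tfr2, the receptor of hepatocytes that senses iron-loaded transferrin, read 328, 353 and 369 CPM in KO females on CTD and 228, 306 and 247 CPM under HFC. All 3 HFC animals lay below all 3 on CTD, and the difference was -0.43 (SE 0.14, adjusted p = 0.0813). DESeq2 (adjusted p = 0.0154) and leaving out HFC animal 413 (adjusted p = 0.0161) called it, within a range of 0.0154 to 0.455 over 11 alternatives. KO males gave -0.29 (SE 0.13, adjusted p = 0.0992) with overlapping diets, called only without HFC animal 539 (adjusted p = 0.0334, within 0.0334 to 0.884 over 13 alternatives). In CT animals Tfr2 gave -0.09 in males and -0.01 in females.

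The uptake genes carried the members' calls. Tfrc brings transferrin-bound iron into cells. It stood at 11.5, 8.21, 11.2 and 9.79 CPM in CT males on CTD and at 17.6, 22.3, 17.6 and 15.0 CPM under HFC. KO males had 10.3, 12.2, 9.60 and 12.4 CPM under CTD and 16.3, 12.9, 13.9 and 22.6 CPM under HFC. All males on HFC lay above all males of the same genotype on CTD. Tfrc rose 1.78-fold in CT males (0.83, SE 0.17, adjusted p = 0.0027) and 1.48-fold in KO males (0.56, SE 0.17, adjusted p = 0.0179). The KO call was lost without CTD animal 304 (adjusted p = 0.0568) or HFC animal 540 (adjusted p = 0.0697), within 8.8e-04 to 0.0697 over 13 alternatives.

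Female Tfrc was not called with diet in either genotype. CT females read 15.7, 12.4 and 12.6 CPM under CTD and 11, 13.1 and 14.1 CPM under HFC, and KO females read 13.9, 14.4 and 12.3 CPM under CTD and 17, 9.43 and 18.3 CPM under HFC. The diets overlapped, with differences of -0.09 (SE 0.21, adjusted p = 0.847) and 0.14 (SE 0.21, adjusted p = 0.705). Over 11 alternatives the CT difference ran from -0.19 to 0.20 (adjusted p from 0.509 to 0.999). The KO difference ran from -0.03 to 0.45 (adjusted p from 0.0993 to 0.952), so a rise in KO females was not excluded. The female minus male difference of the averaged effects was -0.71 (95% interval -1.09 to -0.32) at an unadjusted p of 0.0013 and an adjusted p of 0.0933. It passed only without female KO HFC animal 419 (adjusted p = 0.0454), within 0.0454 to 0.189 over 32 alternatives. In that comparison of sexes 0 of 10 members were called, beside 0.81% of 14685 genes. At an unadjusted p under 0.05 there were 4 members, beside 1694 of the 14685 genes.

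Slc11a2 moves ferrous iron across the apical and endosomal membranes. It read 25.0, 20.4, 19.7 and 22.5 CPM in CT males on CTD and 31.9, 35.5, 32.5 and 29.6 CPM under HFC, and 27.0, 26.3, 22.4 and 21.9 CPM in KO males on CTD and 36.5, 29.9, 30.0 and 32.4 CPM under HFC. In CT females it read 11.7, 13.1 and 15.9 CPM under CTD and 24.0, 27.4 and 20.4 CPM under HFC, and in KO females 15.2, 13.2 and 15.7 CPM under CTD and 24.6, 24.3 and 32.8 CPM under HFC. In each of these 4 comparisons every HFC animal lay above every CTD animal.

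The rise of Slc11a2 was 1.48-fold in CT males (0.57, SE 0.10, adjusted p = 7.3e-04) and 1.32-fold in KO males (0.40, SE 0.10, adjusted p = 0.0045). It was 1.76-fold in CT females (0.82, SE 0.16, adjusted p = 0.0221) and 1.85-fold in KO females (0.89, SE 0.16, adjusted p = 0.0056). The CT female call was lost without CTD animal 306 (adjusted p = 0.117) or 308 (adjusted p = 0.0834), or without HFC animal 420 (adjusted p = 0.100) or 510 (adjusted p = 0.110). The larger female value was not shown to differ from the male one (0.34, 95% interval 0.09 to 0.59, adjusted p = 0.258). The genotypes did not differ beyond error either, with interactions of -0.17 (95% interval -0.43 to 0.10) in males and 0.07 (95% interval -0.37 to 0.52) in females.

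Trf, the iron carrier that hepatocytes secrete, was the most abundant member in CT males on CTD. In CT females it read 10855, 11601 and 10252 CPM under CTD and 16849, 16379 and 15271 CPM under HFC, with no overlap, a difference of 0.57 (SE 0.17, 1.48-fold, adjusted p = 0.0923). In KO females it read 11256, 15252 and 14348 CPM under CTD and 15136, 16537 and 18412 CPM under HFC, which overlapped, a difference of 0.29 (SE 0.17, adjusted p = 0.286). Averaged over genotypes Trf rose in females by 0.43 (SE 0.12, 1.35-fold, adjusted p = 0.0224). That call was lost without the filter on low counts (adjusted p = 0.0527) and without CT animals 306, 420 or 510 or KO animals 307 or 419 (adjusted p from 0.0501 to 0.0610), and 10 of 16 alternatives kept it.

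In CT males Trf read 10291, 9914, 11435 and 10318 CPM under CTD and 12234, 13502, 12224 and 11495 CPM under HFC, again without overlap. The difference of 0.24 (SE 0.09, adjusted p = 0.0865) was called by DESeq2 (adjusted p = 8.2e-04) and with library totals alone, within 5.9e-04 to 0.207 over 13 alternatives. KO males gave 0.06 (SE 0.09, adjusted p = 0.682).

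**Figure D3:**
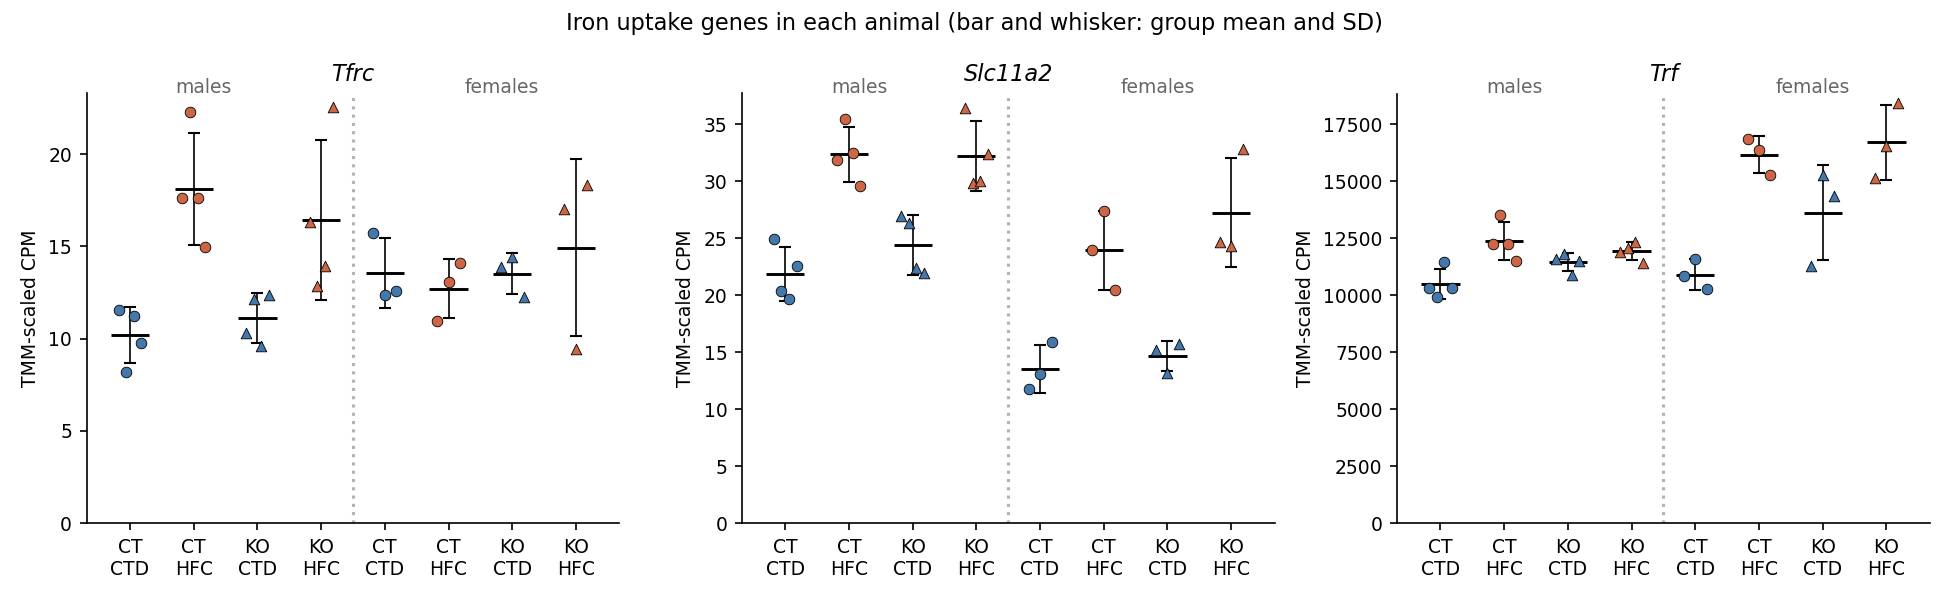
Tfrc, Slc11a2 and Trf in each animal, as TMM-scaled CPM from 0, by genotype and diet with males left and females right of the dotted line; circles are CT, triangles KO, blue CTD, orange HFC, bars group means and whiskers SD. HFC points lie above CTD points in every Slc11a2 comparison, in both male Tfrc comparisons, and in the CT comparisons of Trf.

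Of the storage genes, Fth1 was called in the male average over genotypes and Ftl1 in no diet comparison. Fth1, the ferritin chain that oxidises iron, read 954, 888, 893 and 1053 CPM in CT males on CTD and 1076, 960, 1442 and 1138 CPM under HFC, and 997, 991, 907 and 996 CPM in KO males on CTD and 1006, 1123, 1152 and 1138 CPM under HFC. The CT diets overlapped and the KO diets did not. Neither genotype was called alone, at 0.28 (SE 0.11, adjusted p = 0.0803) and 0.18 (SE 0.11, adjusted p = 0.233), while the average over genotypes was called at 0.23 (SE 0.08, 1.18-fold, adjusted p = 0.0239). That call was lost without CT animal 305 (adjusted p = 0.0524) or 418 (adjusted p = 0.0521) or KO animal 304 (adjusted p = 0.0519). In females Fth1 gave 0.12 (SE 0.18) in CT and 0.35 (SE 0.18) in KO, neither called.

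Ftl1 encodes the chain that helps iron enter the ferritin core. CT males had 1563, 1435, 1510 and 1670 CPM under CTD and 1826, 1534, 2591 and 1942 CPM under HFC, overlapping through animal 417, with a difference of 0.35 (SE 0.12, adjusted p = 0.0535, and 0.0054 to 0.228 over 13 alternatives, of which 4 called it). It gave 0.07 (SE 0.12) in KO males, -0.10 (SE 0.21) in CT females and 0.39 (SE 0.21) in KO females. Both ferritin genes have many processed pseudogenes of near-identical sequence, so their counts are uncertain.

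The genotype comparisons ask what loss of endothelial c-Myc changed in the liver. Across all genes 0% were called in males on HFC, in males on CTD, in females on HFC and in females on CTD, and 0 of 10 members were called in each. At an unadjusted p under 0.05 there were 653, 949, 311 and 446 genes in these 4 comparisons, and DESeq2 called 3, 11, 0 and 1. The averages over diets called 0% of genes in males (788 at an unadjusted p under 0.05, 9 by DESeq2) and 0% in females (227, and 0 by DESeq2). The genotype by diet interactions called 0% in males (852, and 8 by DESeq2) and 0% in females (546, and 0 by DESeq2).

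Among members the largest genotype difference was that of Hamp in males on HFC, where KO livers with 231 to 529 CPM overlapped CT livers with 94.0 to 256 CPM. The difference was 1.19 (SE 0.35, 2.28-fold, unadjusted p = 0.0042), which did not survive adjustment over all genes (adjusted p = 0.958, and at least 0.469 over 13 alternatives). On CTD the males gave 0.63 (SE 0.34, adjusted p = 0.781), and the average over diets was 0.91 (SE 0.24, unadjusted p = 0.0024, adjusted p = 0.793). In females Hamp gave 0.24 (95% interval -1.07 to 1.55) on HFC and -0.29 (95% interval -1.60 to 1.02) on CTD. The male interaction was 0.56 (95% interval -0.39 to 1.51), so the genotype difference was not shown to depend on diet.

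Hamp2 differed between genotypes by 0.72 (SE 0.67) in males on HFC and -0.85 (SE 0.66) on CTD, opposite in sign to each other and neither called. Bmp6 gave -0.04 (95% interval -0.49 to 0.40) and -0.11 (95% interval -0.56 to 0.34) in males and -0.60 (95% interval -1.41 to 0.22) and 0.08 (95% interval -0.75 to 0.90) in females, on HFC and CTD. The groups did not overlap for Ftl1 in males on CTD, higher in KO by 0.22 (SE 0.12, adjusted p = 0.787), or for Tfr2 in females on HFC, lower in KO by 0.31 on the log2 scale (-0.31, SE 0.14, unadjusted p = 0.0510), neither called. How often groups of all genes lay apart in these comparisons was not counted. Hfe differed by at most 0.05 in size.

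**Figure D4:**
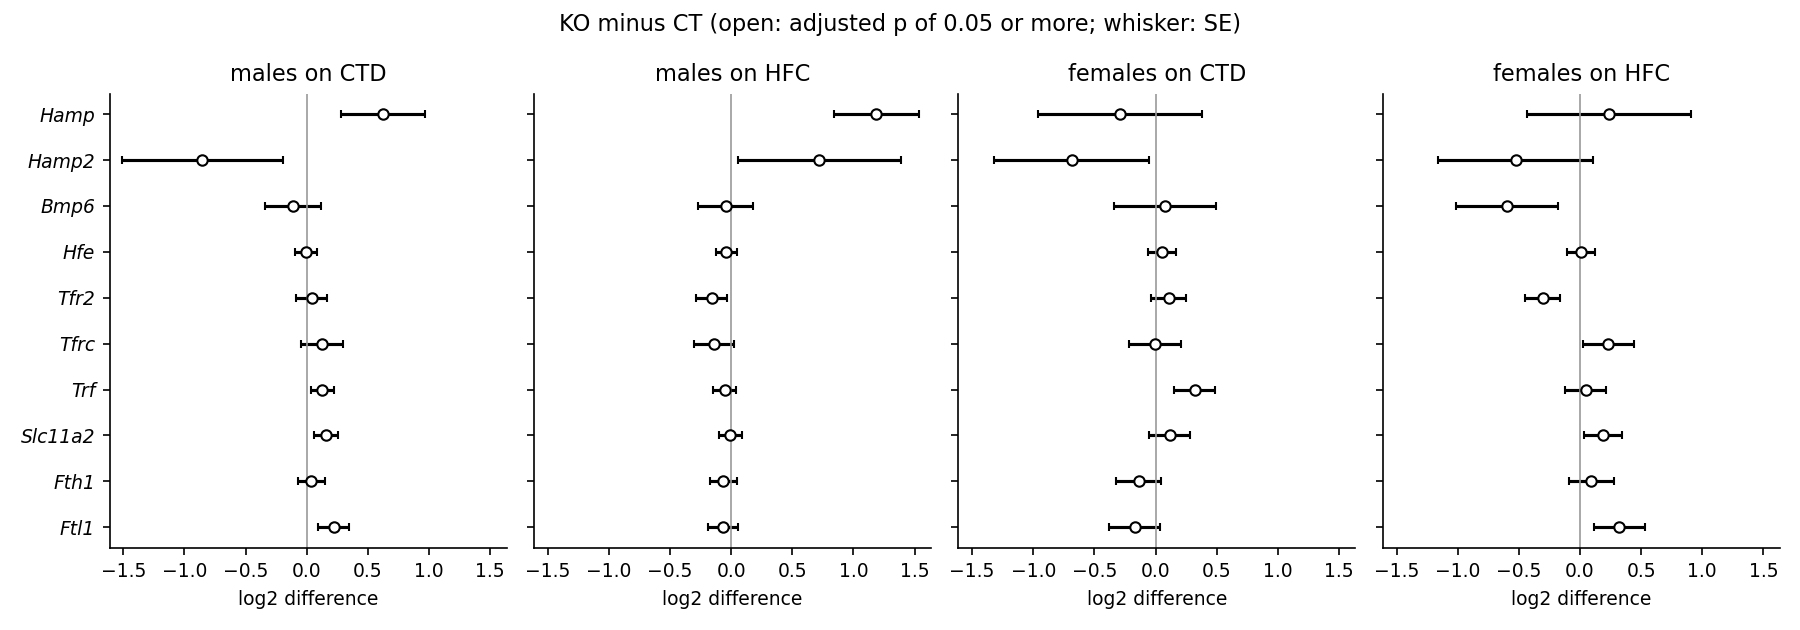
Difference between KO and CT (log2 units, x axis) of the 10 members in males and females on each diet; whiskers are SE, and all points are open because none had an adjusted p under 0.05. Hamp lies right of 0 in both male panels and near 0 relative to its SE in both female panels.

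The other genes of the pathway were taken from lists whose diet responses are given in the same order, CT males, KO males, CT females and KO females. Over all genes 10.6%, 15.5%, 0.936% and 3.94% were called higher and 9.4%, 13.6%, 1.26% and 4.65% lower in these 4 comparisons. Among BMP ligands, receptors and regulators, 1, 1, 0 and 1 of 19 tested rose and 3, 2, 2 and 1 fell, with medians of -0.08, -0.09, -0.10 and -0.07 that turned positive when library totals alone scaled the data. Bmp7, a ligand known best from the kidney, fell in all 4 comparisons. It lay at 5.46 to 8.27 CPM in CT males on CTD and 3.06 to 4.50 CPM under HFC, and at 8.79 to 12.9 CPM in KO females on CTD and 2.97 to 4.79 CPM under HFC. Its differences were -0.77, -0.81, -1.18 and -1.46 (SE 0.15, 0.15, 0.26 and 0.26), without overlap of the diets. Fkbp1a, whose product FKBP12 holds type I BMP receptors inactive, rose by 0.41, 0.47 and 0.61 in CT males, KO males and KO females. Hemojuvelin, listed under its older symbol Hfe2, fell by 0.79 on the log2 scale in CT females (SE 0.15, adjusted p = 0.0197), from 64.1 to 86.3 CPM under CTD to 42.0 to 46.6 CPM under HFC. Its fall of 0.28 in CT males, that of Bmpr2 by 0.28, and that of Tmprss6, the protease that cleaves hemojuvelin, by 0.43 in KO males were lost with library totals alone.

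The 7 target genes of BMP-SMAD signalling (Id1, Id2, Id3, Smad6, Smad7, Atoh8 and Bambi) gave 0 calls by edgeR in each diet comparison, with 0, 1, 0 and 2 genes at an unadjusted p under 0.05 and 0, 1, 0 and 1 called higher by DESeq2. Under that p lay 4728 and 5586 of all 14078 genes in CT and KO males, and 2842 and 3602 of 13999 in females. The medians of the 7 targets were 0.20, 0.19, 0.02 and 0.52. In the genotype comparison of males on HFC their median was 0.57, beside 0.00 over all genes. None was called by edgeR or DESeq2 there, with 3 at an unadjusted p under 0.05, beside 653 of 14078 genes. Atoh8, a transcription factor known to follow hepatic BMP activity, gave 0.62 (SE 0.23, adjusted p = 0.958) there. On CTD it stood at 14.7 to 25.1 CPM in KO males and 6.88 to 14.3 CPM in CT males, without overlap, a difference of 0.95 (SE 0.24, unadjusted p = 0.0013, adjusted p = 0.641). Averaged over diets in males, the 7 targets had a genotype median of 0.40, and edgeR called 0. At an unadjusted p under 0.05 there were 4 of them, beside 788 of 14078 genes. DESeq2 called 1 of the 7 higher, and 9 genes in all.

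In the inflammatory arm, IL6-STAT3 and acute-phase genes, 2, 4, 0 and 1 of 17 rose and 0, 2, 0 and 2 fell. Beside them, 10.6%, 15.5%, 0.936% and 3.94% of all genes were called higher and 9.4%, 13.6%, 1.26% and 4.65% lower. Il1b, an interleukin of macrophages, rose by 1.43 (SE 0.28) in CT males and 1.65 (SE 0.26) in KO males. Inhbb, whose activin B product can also drive Hamp, rose by 0.91 (SE 0.18) and 0.72 (SE 0.18) in the same groups, and Jak2 by 0.40 in KO males. Saa3 rose by 2.30 (SE 0.54) in KO males and 3.45 (SE 0.84) in KO females, while Il6ra, the IL6 receptor, fell by 1.41 in KO females (SE 0.19, adjusted p = 0.0010) and Itih3 by 0.80. Il6 itself did not pass the filter on low counts.

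Animal by animal, Hamp was compared with 9 partners in each sex after the group means had been removed. Hamp and Hamp2 gave a Pearson r of 0.01 (Spearman rho 0.03, permutation p = 0.980 and 0.913) over 16 males and 0.18 (rho 0.28, permutation p = 0.615 and 0.456) over 12 females, and Hamp and Bmp6 gave -0.19 and 0.09. None of the 18 relations passed adjustment. The highest was with Smad7 in females, at r = 0.72 and rho = 0.76 (permutation p = 0.0318 and 0.0204, adjusted 0.503 and 0.368), and r was 0.66 without the 2 animals farthest from the median. Among 13737 genes compared in the same way, those most like Hamp by the smaller of the male and female r were Slf1 (0.67 and 0.85), Zfp655 (0.65 and 0.72) and Mta2 (0.64 and 0.63). For Bmp6 they were Hlcs (0.85 and 0.83), Bbs9 (0.75 and 0.74) and Peak1 (0.66 and 0.68), and for Tfrc Nop58 (0.74 and 0.77), Sfpq (0.72 and 0.72) and Rps23 (0.71 and 0.82), each over 16 males and 12 females that share library depth and scaling.

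Of 25 genes of iron and heme transport, storage and recycling, 6, 8, 1 and 4 rose and 2, 4, 0 and 1 fell. Over all genes 10.6%, 15.5%, 0.936% and 3.94% were called higher and 9.4%, 13.6%, 1.26% and 4.65% lower. The medians of the 25 genes were -0.02, 0.24, 0.25 and 0.22. Steap3, the ferrireductase that prepares endosomal iron for DMT1, rose in all 4 comparisons by 0.51, 0.61, 0.67 and 0.51 (SE 0.08, 0.08, 0.14 and 0.14). It went from 12.7 to 15.9 CPM in CT females on CTD to 21.4 to 23.3 CPM under HFC, and the diets did not overlap in any group. Hmox1, which opens the heme ring and frees its iron, rose by 1.16 (SE 0.20) in CT males and 1.46 (SE 0.20) in KO males. Ferroportin, Slc40a1, rose by 0.41 and 0.51 in males, and Blvrb by 0.69, 0.54 and 0.89 in CT males, KO males and KO females. Cp, the ferroxidase ceruloplasmin, rose by 0.84 in KO females and Slc25a37, mitoferrin, by 0.55. Ncoa4, the receptor that leads ferritin to autophagy, fell by 0.53 on the log2 scale in CT males and 0.50 in KO males, and Slc39a14, a carrier of iron not bound to transferrin, by 0.67 in KO males and 0.58 in KO females. With library totals alone the counts became 10 higher and 1 lower, 13 and 1, 9 and 0, and 12 and 0. With that scaling 4125 and 5581 of 14078 genes were called higher in males, and 1682 and 3357 of 13999 in females.

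**Figure D5:**
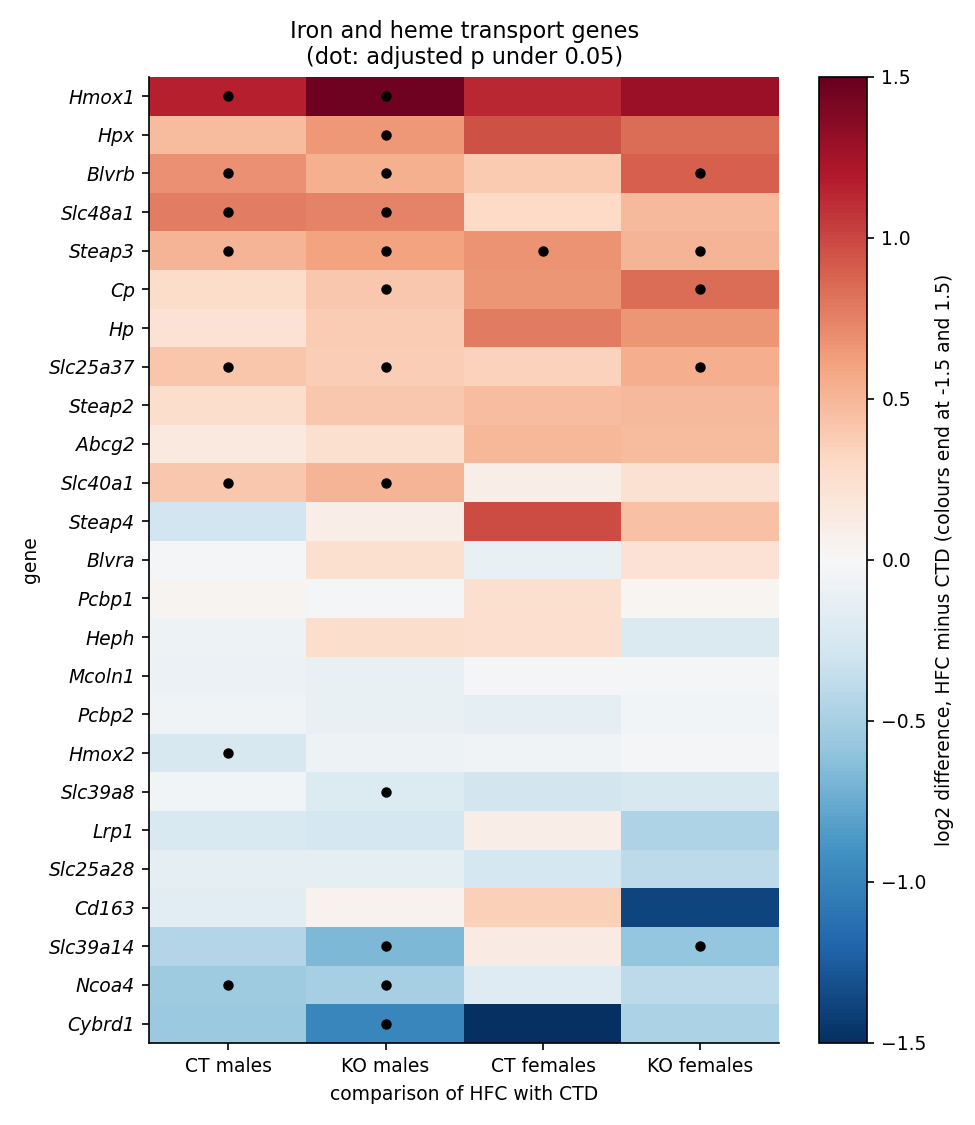
Diet difference (colour, log2 units, HFC minus CTD, ending at -1.5 and 1.5) of 25 genes of iron and heme transport, storage and recycling, 1 row per gene and 1 column per comparison; dots mark an adjusted p under 0.05. Steap3 carries a dot in all 4 columns, and CT females have no other dot.

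The remaining iron lists had calls in 1 direction, lower, beside 9.4%, 13.6%, 1.26% and 4.65% of all genes called lower in the same 4 comparisons. By TMM their medians were below 0 in both sexes, and with library totals alone all turned positive except that of the iron-sulfur list in CT females (-8.1e-04). The TMM medians were -0.21, -0.20, -0.13 and -0.29 for iron-regulatory, -0.08, -0.17, -0.05 and -0.17 for heme synthesis and -0.15, -0.06, -0.29 and -0.15 for iron-sulfur cluster genes. Of the 5 iron-regulatory genes Epas1, the hypoxia factor HIF2A whose messenger carries an IRE, fell by 0.31 in CT males and 0.54 in KO males, and Aco1, iron-regulatory protein 1, by 0.20 in KO males; none was called in females. Of 10 heme synthesis genes Cpox fell by 0.51, 0.66 and 1.09 in CT males, KO males and KO females, and Alas1, the first and limiting step in liver, by 0.91 in KO males. Of 14 iron-sulfur cluster genes 3 fell in CT males (Glrx5 by 0.31, Bola3 by 0.28, Isca1 by 0.19) and 4 in KO males, with 0 in females. With library totals alone no call of the iron-sulfur list kept both its direction and its side of the threshold, and the same held for Epas1, Aco1, Alas1, and Cpox in CT males. No gene of these lists was called in any genotype or interaction comparison.

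Markers of other liver cells moved with diet beside the members. Called higher over all genes were 10.6% in CT males, 15.5% in KO males, 0.936% in CT females and 3.94% in KO females. Called lower in the same order were 9.4%, 13.6%, 1.26% and 4.65%, and these shares apply to each list below. Of 12 Kupffer cell markers, edgeR called 9 higher in CT males, 12 in KO males and 0 in either female group. The medians were 0.93, 1.52, 0.66 and 0.81 in CT males, KO males, CT females and KO females. DESeq2 called 2 higher in KO females. Averaged over genotypes in females, edgeR called 1 higher, beside 10.4% of all genes, and DESeq2 called 4. The female minus male comparison of diet effects called 0 of the 12 markers. Their summed level went from 324 to 488 CPM under CTD to 661 to 1015 CPM under HFC in CT males and from 282 to 345 CPM to 828 to 991 CPM in KO males. In females it overlapped, at 314 to 957 CPM and 737 to 1020 CPM in CT and 329 to 867 CPM and 546 to 1542 CPM in KO. None of these 12 markers was at 0 in every animal of a group. Between KO and CT males on CTD edgeR called 0 of the 12, with 8 at an unadjusted p under 0.05, beside 949 of 14078 genes. DESeq2 called 1 lower there, and the median was -0.40. On HFC both methods called 0, with 3 at an unadjusted p under 0.05, beside 653 genes, and a median of 0.28. In the male genotype by diet interaction 11 of the 12 had an unadjusted p under 0.05, beside 852 genes, with a median of 0.65. EdgeR called 0 in that interaction and DESeq2 called 1 higher. Between KO and CT males on CTD, edgeR and DESeq2 called 0 of 16 sinusoidal endothelial markers, with 9 at an unadjusted p under 0.05. Their median was -0.33, and their sums of 387 to 524 CPM in KO and 508 to 637 CPM in CT overlapped.

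Of 8 erythroid markers tested, Klf1 fell in CT males, KO males and KO females, and Alas2, the heme synthesis enzyme of red cell precursors, rose in CT females by 0.83 (SE 0.16) and KO females by 0.73 (SE 0.15). Averaged over genotypes, the comparison in which Hamp2 was called lower in females, 5 of the 8 were called higher and 1 lower in females (median 0.92) and 0 higher and 2 lower in males (median 0.11). In these averages 10.4% of all genes were called higher and 8.98% lower in females, and 20.4% each way in males. The summed level of all 11 erythroid markers in the tables overlapped between diets in KO females, at 273 to 437 CPM and 351 to 1007 CPM, and not in CT females, at 340 to 501 CPM and 518 to 1089 CPM. Rhd was at 0 in CT females on CTD. Of 16 endothelial markers 1, 3, 0 and 1 rose, with 1, 4, 9 and 3 at an unadjusted p under 0.05. Under that p lay 4728 and 5586 of all 14078 genes in CT and KO males, and 2842 and 3602 of 13999 in females. The endothelial medians were -0.08 (0.14 with library totals alone), 0.18, 0.46 and 0.31. Averaged over genotypes 3 rose and 1 fell in males (median 0.06) and 5 rose and 0 fell in females (median 0.40). The endothelial sum was higher on HFC without overlap in CT females (271 to 420 against 492 to 522 CPM) and KO females (305 to 405 against 415 to 463 CPM), and overlapped in both male genotypes. Of 12 hepatocyte markers 0 rose and 1, 3, 1 and 3 fell. The hepatocyte sum in CT females went from 180644 to 186405 CPM under CTD to 109689 to 156997 CPM under HFC, and in KO females from 166586 to 192664 CPM to 112373 to 128036 CPM, the groups in which Hamp and Hamp2 lay lower. It was also lower without overlap in KO males, from 108079 to 125856 CPM to 85485 to 98245 CPM. There Hamp and Hamp2 differed by -0.05 and 0.09. The hepatocyte sum overlapped in CT males. These sums were scaled by TMM. With library totals alone the median of all genes moved to 0.26 in KO males, 0.30 in CT females and 0.32 in KO females. The falls of the hepatocyte sum would be smaller with that scaling, and its overlap was not examined there. Of 12 targets of the oxidative-stress factor NRF2, 10, 10, 0 and 5 rose, and of 12 cell cycle genes 6, 10, 0 and 2 rose. The part of these shifts in the values of Tfrc, Slc11a2, Trf, Fth1, Hamp and Hamp2 was not tested.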

How the data were processed

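Per the labels, a DNBSEQ machine of BGI read whole-liver RNA from 28 mice. The authors deposited raw counts per gene and matching CPM for 16 males and 12 females in separate tables, and the deposited CPM equalled each count scaled by its column total. The submitters' processing notes name FastQC, edgeR and the build GRCm38 (mm10); no aligner, counter, annotation, strand setting or version is given there or in the labels. All columns were used (0 left unused).

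Counts were tested with edgeR 4.0.16 (limma 3.58.1, R 4.3.3): filterByExpr, TMM, robust quasi-likelihood fits over the 4 groups of each sex, and Benjamini-Hochberg adjustment over all genes tested. The comparison of sexes joined the tables in 1 model with 14685 genes. SE is the log2 difference divided by the square root of F. Library totals were 22154774 to 22652285 in males and 18741939 to 19195502 in females, and their precision shows in the intervals. The smallest count of a member in a library was 13 (Bmp6). The fitting steps were tested on simulated data. Relations used Python 3.11.15 and numpy 2.4.6, with group-centred log2 CPM (prior count 2) and 100000 permutations within groups. Alternatives were other scaling (DESeq2's size factors, library totals), no filter, DESeq2 1.42.0, the compared groups alone, and leaving out each animal.

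All 10 members are named. From each pathway list, up to 4 called genes per diet comparison by adjusted p are named, and up to 2 per genotype comparison; further names (Bmpr2, Tmprss6, Hfe2 in CT males) account for calls that the scaling changed. The members and lists were chosen with earlier results of these data known. The averaged comparisons and the relaxed IRE form were added after the data had been seen. Of 178 list entries 175 were in the tables. Promoters and transcripts are from RefSeq and GENCODE M21; gene symbols were matched through older names for Hjv (Hfe2), Erfe (Fam132b) and Fdx2 (Fdx1l).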

Additional observations from a re-analysis of the deposited data

Results flagged for a closer look

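Of 40 member and group combinations with 4 males, 5 had 1 animal standing apart, where the gap to its nearest neighbour divided by the group's range exceeded 0.829; chance gives about 1 in 20 such groups. In CT males on CTD, Bmp6 was lowest in animal 305 (2.59 CPM, ratio 0.918). In CT males on HFC, Hamp2 was highest in animal 416 (39.3 CPM, ratio 0.940). In KO males on CTD, Fth1 (907 CPM, ratio 0.932) and Ftl1 (1675 CPM, ratio 0.883) were both lowest in animal 304, and Tfr2 was highest in animal 303 (431 CPM, ratio 0.845). Of 30 tests of member differences between genotypes' or sexes' diet effects, 0 were called by edgeR.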

How the results depend on the processing

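When only library totals scaled the counts, the members called were 6 in CT males, 5 in KO males, 2 in CT females and 4 in KO females, and 6 in each sex averaged over genotypes; all genes called were 4535 in CT males, 1827 in CT females, 3737 in KO females and 6598 in females averaged. With that scaling Tfr2 turned to 0.14 in CT males, 0.28 in CT females, 0.058 in males averaged and 0.075 in females averaged, and Hfe to 0.29 in CT females, 0.26 in KO females and 0.27 in females averaged. Another 19 of 150 member differences changed sign within 1 SE. DESeq2 called 5 members in CT males, 3 in CT females, 3 in KO females and 5 in males averaged. Over all genes it called 919 in CT females, 1879 in KO females and 274 between the sexes, and for genotype 3 in males on HFC, 11 in males on CTD, 1 in females on CTD, 8 for the male interaction and 9 in males averaged. The compared groups alone gave 804 genes in CT females and 435 in KO females. The causes were not tested.

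Leaving out each animal in turn, members called ran from 2 to 4 in CT males, 1 to 3 in KO males, 0 to 1 in CT females, 1 to 2 in KO females, 2 to 5 in males averaged, 2 to 4 in females averaged and 0 to 1 between the sexes. All genes called ran from 1753 to 3374 in CT males, 72 to 417 in CT females, 566 to 2671 in KO females, 1683 to 3694 in females averaged, 58 to 158 between the sexes, 0 to 9 for genotype in females on HFC and 0 to 1 for the female interaction. Member differences changed sign within 1 SE in 139 of 1680 such fits. No paired analysis was possible because each animal carries its own number and no number is shared between groups. With 3 or 4 animals a group, the diet differences of Hamp in females (SE 0.69 and 0.68) and of Hamp2 (SE 0.65 to 0.67) were measured least precisely, and Bmp6 rested on 13 to 96 counts. The separate animal number blocks of the diets limit every diet value, and the split of reads between near-identical genes limits the hepcidin and ferritin values.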

Other observations

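Some groups were far more even than others for the same gene. The coefficient of variation of Hamp2 was 9.63% among KO males and 78.7% among CT males, both on CTD. That of Hamp in the same groups went the other way, at 41.6% among KO males and 21.5% among CT males. No test of this spread was made.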
